A study of Mus musculus with 2 samples.

Results

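The myosin light chains were described as 8 genes of the 26100 listed in both libraries, namely Myl1, Myl2, Myl3, Myl4, Myl6, Myl6b, Myl9 and Mylpf. They were chosen by symbol as a gene family, and all 8 were found in the feature lists. The study turned mouse embryonic fibroblasts (MEFs) into induced myogenic progenitor cells (iMPCs), and both samples carried the genotype Tg:Pax7-nGFP/C57BL6;DBA2, a nuclear GFP reporter of Pax7. The iMPC sample was generated by MyoD+F/R/C treatment and kept in F/R/C medium, and the series' design text calls it a stable clone. The MEF sample was labelled as cultured in MEF media. Each sample is 1 droplet library, so nothing below was tested across samples. Every interval is a 95% interval for counting error only, and treatment, clone and library cannot be told apart between the samples.

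Levels are counts of unique molecular identifiers (UMIs, 1 per captured RNA molecule) summed over the cells of a set and given per 1000000 UMIs (CPM). The libraries read the 3′ end, so 1 molecule counts once whatever the gene's length. MEF cells were the 6043 barcodes with at most 20% mitochondrial UMIs. The same limit and a minimum of 8036 UMIs left 9349 iMPC cells. Among the iMPC cells, 2180 held at least 1 Pax7 UMI and no Myog UMI (the Pax7 set). Pax7 encodes the transcription factor of muscle stem cells. A further 1724 cells held at least 5 UMIs of Myog, the myogenin gene of committed myoblasts, with at most 1 Ckm UMI (the Myog set). The 1037 cells of the Ckm set held at least 5 UMIs of Ckm, which encodes muscle creatine kinase. The 553 cells of the Dcn set held at least 5 UMIs of Dcn, which encodes the fibroblast matrix protein decorin, and 4001 cells fell in no set. Median depth was 18929 UMIs in MEF cells, 18729.5 in the Pax7 set, 23858 in the Myog set, 42148 in the Ckm set and 18064 in the Dcn set.

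The sets were compared with marker lists. These lists include the genes that define the sets. Pax7 is among the satellite cell genes, Myog among the committed myoblast genes, Ckm among the myocyte genes and Dcn among the fibroblast genes. The sum of a set for its own list is thus partly given by how its cells were chosen. The summed level of 10 satellite cell genes was 821 CPM in the Pax7 set, between 418 and 452 in the other iMPC sets and 275 in MEF cells. The summed level of 6 committed myoblast genes was 387 CPM in the Pax7 set, 5629 in the Myog set and 5018 in the Ckm set. The summed level of 9 myocyte genes was 799 CPM in the Pax7 set, 10778 in the Myog set and 36375 in the Ckm set. The summed level of 8 fibroblast genes was 6411 CPM in MEF cells, 5178 in the Dcn set, 1351 in the Pax7 set, 296 in the Myog set and 141 in the Ckm set. The fibroblast sum of the Pax7 set was thus above its satellite cell sum, and its part in the levels below was not tested. The Dcn set also held 3405 CPM of the myocyte genes, against 93.6 in MEF cells. It shared 110 cells with the Pax7 set, 18 with the Myog set and 18 with the Ckm set. Scrublet marked 1.33% of the Pax7 set, 7.02% of the Myog set, 7.91% of the Ckm set and 7.41% of the Dcn set as doublets, including 14 of the 18 cells in both the Ckm and Dcn sets. The libraries shared 16 barcodes, which held 1 of the 29 Myl1 UMIs of MEF cells, 2 of 648 for Myl4 and 2 of 285 for Mylpf.

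Each myosin head carries an essential and a regulatory light chain, which wrap around its lever arm. In skeletal and cardiac muscle they tune force and speed, and in smooth muscle and non-muscle cells phosphorylation of the regulatory chain switches the motor on. Among the essential chains, Myl1 encodes that of fast skeletal muscle, Myl4 that of embryonic skeletal muscle and the atrium, Myl3 that of slow muscle and the ventricle, and Myl6 that of smooth muscle and non-muscle cells. Myl6b encodes a further essential chain found in slow muscle and in non-muscle cells. Among the regulatory chains, Mylpf serves fast skeletal muscle, Myl2 slow muscle and the ventricle, and Myl9 smooth muscle and non-muscle cells.

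The promoters of Mylpf, Myl1 and Myl9 are printed because these genes lead the muscle and the non-muscle side of the family in the values that follow. Each runs from 250 bases before to 50 bases after the start of transcription on the gene's own strand, 5′ to 3′, from RefSeq in GRCm38.p6. All 8 genes matched an entry of that table. Capitals mark matches to the E-boxes CAGCTG or CAGGTG (both strands searched as CANNTG, the letters that MyoD-family factors bind) and to the CArG box, the site of serum response factor. The Mylpf window lies at chr7:127211358-127211657 on the plus strand, the Myl1 window at chr1:66945007-66945306 on the minus strand, and the Myl9 window at chr2:156775214-156775513 on the plus strand. Myl1 and Mylpf have further annotated starts outside these windows, and the letters there were not searched.

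Mylpf: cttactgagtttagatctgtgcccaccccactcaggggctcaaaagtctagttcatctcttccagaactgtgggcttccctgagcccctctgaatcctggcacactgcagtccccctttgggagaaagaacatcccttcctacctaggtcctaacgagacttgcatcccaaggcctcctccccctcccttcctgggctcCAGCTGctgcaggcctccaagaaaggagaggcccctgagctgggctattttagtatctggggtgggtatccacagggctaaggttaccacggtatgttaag

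Myl1: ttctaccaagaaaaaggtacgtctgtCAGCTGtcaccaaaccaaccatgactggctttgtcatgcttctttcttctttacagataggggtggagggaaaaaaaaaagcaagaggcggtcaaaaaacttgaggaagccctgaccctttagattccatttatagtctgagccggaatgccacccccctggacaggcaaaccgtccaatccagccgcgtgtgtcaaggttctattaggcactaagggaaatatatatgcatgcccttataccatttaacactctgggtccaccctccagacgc

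Myl9: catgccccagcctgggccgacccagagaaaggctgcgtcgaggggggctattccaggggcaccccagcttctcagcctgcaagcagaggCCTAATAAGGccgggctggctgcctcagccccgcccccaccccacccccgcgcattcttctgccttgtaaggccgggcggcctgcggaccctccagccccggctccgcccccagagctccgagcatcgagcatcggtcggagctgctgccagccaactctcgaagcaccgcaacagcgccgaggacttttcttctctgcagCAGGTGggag

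The Mylpf promoter held 1 E-box, CAGCTG, beginning at -51 from the start. The Myl1 promoter also held 1 E-box, CAGCTG, at -224. CAGCTG is a palindrome and 1 case of CANNTG. Among 32851 mouse promoters of 300 bases, 72.3% held a CANNTG and 16.3% a CAGCTG. Windows of Myl2, a member at low level in every set, held CAGCTG too, at 34 and at -130. The Myl4 window held no CANNTG, and windows of Myl3, Myl6, Myl6b and Myl9 held it in other forms. The Myl9 promoter held a CArG box at -161 and an E-box, CAGGTG, at 41. The CArG box was found in 1.63% of the promoters, and windows of Myl3 (at -85) and Myl6 (at -50, in its second window) held it too. No member's window matched the MEF2 box, which 3.19% of promoters held. These matches describe the letters of the windows and not binding.

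By GENCODE M21 in GRCm38, Mylpf (ENSMUSG00000030672) spans bases 127208890 to 127214298 of chromosome 7, and Myl1 (ENSMUSG00000061816) spans 66924295 to 66945404 of chromosome 1. Myl1 makes a long and a short protein from separate starts, which 3′ reads cannot separate. Myl4 (ENSMUSG00000061086) spans 104550663 to 104595753 of chromosome 11, and Myl9 (ENSMUSG00000067818) spans 156775420 to 156781658 of chromosome 2. Myl6b (ENSMUSG00000039824, 128494157 to 128498685) and Myl6 (ENSMUSG00000090841, 128490860 to 128494145) are neighbours on the minus strand of chromosome 10, with Myl6b upstream. Myl2 (ENSMUSG00000013936) lies on chromosome 5 and Myl3 (ENSMUSG00000059741) on chromosome 9.

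Mylpf, Myl1 and Myl4 were the main light chains of the Myog and Ckm sets, and the 3 stood highest in the Ckm set. Mylpf, the fast regulatory chain, was at 2.41 CPM (2.14 to 2.71) in MEF cells, 258 (253 to 262) in the Pax7 set, 4207 (4188 to 4225) in the Myog set, 14976 (14941 to 15010.2) in the Ckm set and 1211 (1191 to 1231) in the Dcn set. Myl1, the fast essential chain, was at 0.246 CPM (0.164 to 0.353) in MEF cells, 173 (169 to 177) in the Pax7 set, 2913 (2897 to 2929) in the Myog set, 10344 (10315 to 10372) in the Ckm set and 919.6 (903 to 937) in the Dcn set. Myl4, the embryonic essential chain, was at 5.49 CPM (5.07 to 5.93) in MEF cells, 134 (131 to 138) in the Pax7 set, 2494 (2479.9 to 2509) in the Myog set, 7288 (7264 to 7312) in the Ckm set and 555 (541 to 568) in the Dcn set. For each of the 3 genes the order from low to high was MEF, Pax7, Dcn, Myog and Ckm, with no overlap of the counting intervals. Summed, the 4001 cells of no set lay between the Dcn and Myog sets, with 2129 CPM of Mylpf, 1454 of Myl1 and 1285 of Myl4. Their top 5% of cells held 73.8% of the Mylpf UMIs, 76.5% of the Myl1 UMIs and 76.2% of the Myl4 UMIs. Their median cell had 254, 165 and 134 CPM of these genes. Free RNA (explained with the Pax7 set further on) was estimated to give 183, 154 and 109 CPM in them.

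Myl6b followed the same order at a lower level. It was at 2.40 CPM in MEF cells, 5.77 in the Pax7 set, 12.4 in the Dcn set, 47.8 in the Myog set and 129 in the Ckm set. With Scrublet doublets removed, the Dcn and Pax7 sets stood side by side at 5.49 and 5.61 CPM.

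**Figure D1:**
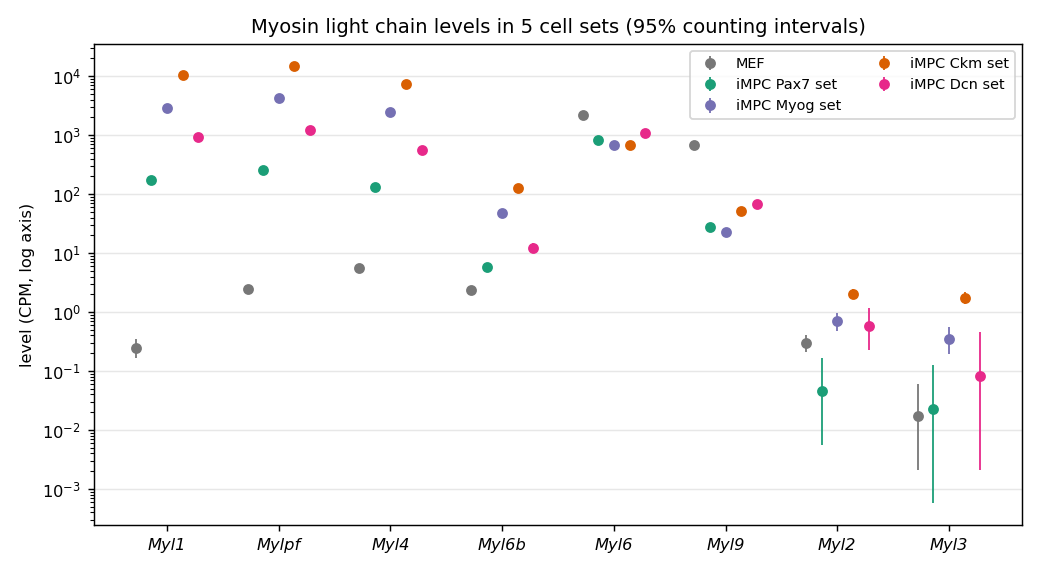
CPM of the 8 light chain genes in MEF cells and the 4 iMPC cell sets, on a log axis; bars are 95% Poisson intervals for counting error. Mylpf runs from 2.41 CPM in MEF cells to 14976 in the Ckm set, while Myl6 runs from 2239 in MEF cells to 685 in the Ckm set.

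Between the Pax7 and Myog sets, 4 of the 6 members at 10 CPM or more in either set were at least 2-fold higher in the Myog set and 0 were lower. Of all 7932 genes at that level, 7.02% were 2-fold higher and 11.5% 2-fold lower. The log2 ratio was 4.03 for Mylpf, 4.07 for Myl1, 4.21 for Myl4 and 3.05 for Myl6b. With an estimate of free RNA subtracted (given with the Pax7 set further on), these were 5.80, 7.29, 6.61 and 3.54. The median over the 6 members was 3.54, beside -0.14 over all genes. Myl6 and Myl9 had log2 ratios of -0.24 and -0.30, inside the 2-fold limit, and with Pax7 at 2 or more UMIs that of Myl9 was 0.025.

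From the Myog to the Ckm set, 5 of 6 members were 2-fold higher and 0 lower, beside 6.53% and 13.8% of all genes. The log2 ratio was 1.83 for both Mylpf and Myl1, 1.55 for Myl4, 1.44 for Myl6b and 1.20 for Myl9. None of these 5 reached a 4-fold ratio. When the sets were scaled by the median of gene ratios, Mylpf and Myl1 did, both at 2.17. Myl6 stood at a log2 ratio of -0.02, and its direction turned to 0.32 under that scaling. From the Pax7 to the Ckm set, 4 of 6 members were 2-fold higher and 0 lower, beside 12.2% and 30.2% of all genes. The log2 ratio there was 5.86 for Mylpf, 5.90 for Myl1, 5.76 for Myl4 and 4.49 for Myl6b. Less free RNA, the ratios were 7.66, 9.16, 8.19 and 4.99. Myl9 had 0.89, and with scaling by the median of gene ratios it was the fifth member past 2-fold, at 1.40.

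The make-up of the light chain pool differed between the sets. In MEF cells Myl6 made up 76.3% and Myl9 23.3% of the UMIs of the 8 genes, and Mylpf, Myl1 and Myl4 together 0.278%. In the Pax7 set Myl6 was still the largest share at 57.7%, followed by Mylpf at 18.2%, Myl1 at 12.2%, Myl4 at 9.48% and Myl9 at 1.96%. In the Myog set Mylpf held 40.5%, Myl1 28.1%, Myl4 24.0% and Myl6 6.68%. The Ckm set held 44.7% Mylpf, 30.9% Myl1, 21.8% Myl4 and 2.05% Myl6. The share of the 3 skeletal genes was thus 39.9% in the Pax7 set, 92.6% in the Myog set and 97.4% in the Ckm set. Less free RNA, it was 12.1% in the Pax7 set, where Myl6 then held 84.6%.

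The Dcn set was mixed, with 31.6% Mylpf, 27.9% Myl6, 24.0% Myl1, 14.5% Myl4 and 1.77% Myl9. Its leading member turned with the cells taken. Without doublets Myl6 led with 47.9%, Mylpf held 22.3%, and the 3 skeletal genes together 48.6% in place of 70.0%. Without cells of more than 1 set Myl6 held 45.1% and Mylpf 20.7%. The size of the pool also differed. The 8 genes took 0.293% of all UMIs in MEF cells, 0.142% in the Pax7 set, 0.384% in the Dcn set, 1.04% in the Myog set and 3.35% in the Ckm set. The Dcn set moved below MEF cells without doublets, at 0.233%, and without cells of more than 1 set, at 0.253%.

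**Figure D2:**
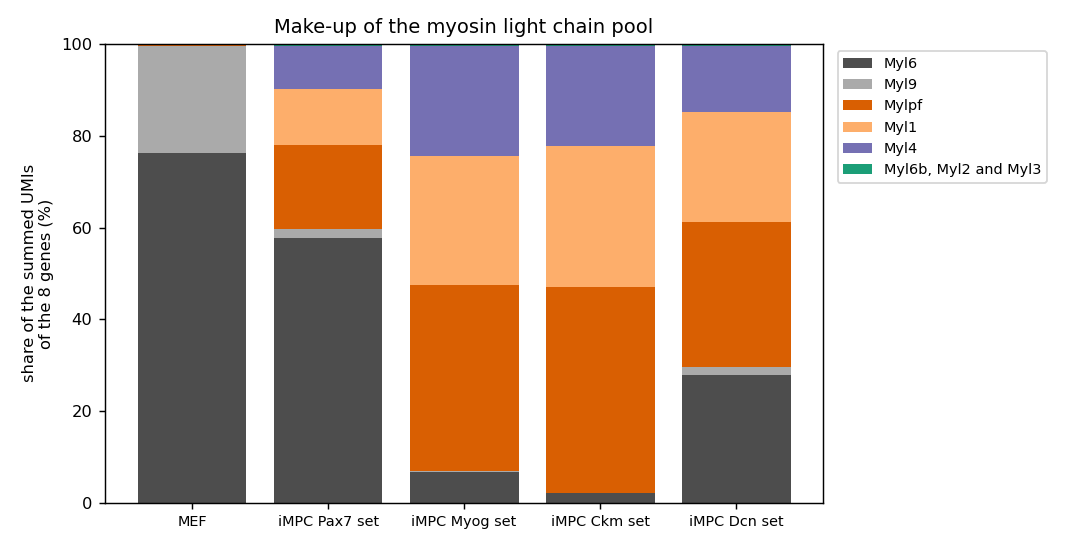
Share of the summed UMIs of the 8 genes held by each gene (percent, stacked bars from 0 to 100) in MEF cells and the 4 iMPC cell sets. Myl6 and Myl9 fill 99.6% of the MEF bar, and Mylpf, Myl1 and Myl4 together fill 97.4% of the Ckm bar.

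Cell by cell, every one of the 1037 Ckm-set cells held more UMIs of Mylpf, Myl1 and Myl4 than of Myl6 and Myl9. The same held for 1280 of the 1724 Myog-set cells (74.2%), 604 Pax7-set cells (27.7%) and 119 Dcn-set cells (21.5%). It held for 0 of 6043 MEF cells, which allows a share of up to 0.061% by the exact binomial interval. These counts used unthinned UMIs with no free RNA subtracted. In the Pax7 set, free RNA alone was estimated to give 185 CPM of Mylpf, 155 of Myl1 and 110 of Myl4 (explained further on). The median Myl6 level of that set was 723 CPM, with a lower quartile of 501. The part of free RNA in these shares was not tested.

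Myl6 and Myl9, the chains of smooth muscle and non-muscle myosin, were highest in MEF cells. Myl6 was at 2239 CPM (2230.1 to 2247) in MEF cells, 1069.7 (1051 to 1088) in the Dcn set, 819 (810.2 to 827) in the Pax7 set, 693 (685 to 701) in the Myog set and 685 (678 to 693) in the Ckm set. The intervals of the Myog and Ckm sets overlapped, so these neighbours were not told apart. Thus the share of Myl6 in the pool was 57.7% in the Pax7 set and 2.05% in the Ckm set, while its level differed by a log2 ratio of -0.26. With scaling by the median of gene ratios that ratio was 0.25.

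Myl9 was at 684 CPM (679.6 to 689) in MEF cells, 67.9 (63.4 to 72.7) in the Dcn set, 51.6 (49.6 to 53.7) in the Ckm set, 27.8 (26.2 to 29.4) in the Pax7 set and 22.5 (21.2 to 23.9) in the Myog set. It varied widely among MEF cells, with a lower quartile of 97.9 CPM, a median of 397 and a 95th percentile of 2311. In the Pax7 set 457 cells (21.0%) held a Myl9 UMI, and the top 5% of cells held 65.0% of the Myl9 UMIs. Pax7-set cells with no Myod1 UMI had 37.1 CPM of Myl9, against 20.5 in those with one, while Mylpf was at 254 and 261.

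Beside Myl9 and Myl6, the summed level of 6 smooth muscle genes was 9989 CPM in MEF cells, with all 6 genes at 10 CPM or more. It was 422 in the Pax7 set, 891 in the Myog set, 856 in the Ckm set and 746 in the Dcn set, with 3 to 4 genes at that level. The highest gene of the list gave much of each sum. It was at 815 CPM in the Myog set, 737 in the Ckm set, 506 in the Dcn set, 308 in the Pax7 set and 6108 in MEF cells. The part of such cells in the MEF levels was not tested.

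Against MEF cells, the Dcn set was 2-fold higher in 4 of 6 members and 2-fold lower in 2, beside 13.0% and 12.9% of all genes. The log2 ratio was 11.87 for Myl1, 8.97 for Mylpf, 6.66 for Myl4 and 2.37 for Myl6b, and it was -3.33 for Myl9. With doublets removed, these ratios were 10.60, 7.78, 5.36, 1.16 and -3.19. Only 3 members then counted as higher, since Myl6b was under 10 CPM in both groups. Myl6 stood near the 2-fold limit. Its log2 ratio was -1.06, and it passed inside the limit when cells of more than 1 set were left out. The Pax7 set was 2-fold higher than MEF cells in 3 of 5 members and 2-fold lower in 2, beside 14.8% and 19.4% of all genes. Those higher were Myl1, Mylpf and Myl4, at log2 ratios of 9.46, 6.74 and 4.61, and those lower were Myl9 at -4.62 and Myl6 at -1.45. Less free RNA, the first 3 ratios were 6.21, 4.94 and 2.19. These 2 comparisons share the MEF library.

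Myl2 and Myl3, the pair of slow muscle and the ventricle, were the lowest members in the Pax7, Myog, Ckm and Dcn sets, and neither passed 2.06 CPM in any set. Myl2 was at 2.06 CPM (1.67 to 2.5) in the Ckm set, from 100 UMIs, and at 0.693 in the Myog set, 0.296 in MEF cells and 0.0454 in the Pax7 set, the last from 2 UMIs. The 7 Myl2 UMIs of the Dcn set all came from 1 cell. Myl3 was at 1.75 CPM (1.40 to 2.16) in the Ckm set, from 85 UMIs in 35 cells, of which 1 cell held 22. It had 16 UMIs in the Myog set, 2 in MEF cells and 1 each in the Pax7 and Dcn sets. A list of 8 cardiomyocyte genes summed to between 2.54 and 5.69 CPM in the sets, and none of its genes reached 10 CPM in any. A second list held 9 slow or cardiac muscle genes, of which 7 were at 10 CPM or more in the Pax7 or Ckm set. All 7 were 2-fold higher in the Ckm set, beside 12.2% of all genes. Tnnc1 was at 4992 CPM there, Tnni1 at 4013 and Myh7 at 121, while Myh6 was at 2.28 and Tnni3 at 0.267.

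Relative to the median level of Mylpf, Myl1 or Myl4, the Myog set spread more widely over its cells than the Ckm set. In CPM the quartiles of Mylpf lay further apart in the Ckm set. The Mylpf level of the Myog set had a median over cells of 767 CPM, a lower quartile of 318 and an upper quartile of 2983. Its 95th percentile was 17183, so the sum of 4207 CPM rested on the upper cells. Myl1 had a median of 415 CPM and a 95th percentile of 12329.8, and Myl4 a median of 237 and a 95th percentile of 10555. The Ckm set had a median Mylpf level of 13839.8 CPM and quartiles of 8183 and 20009. Its median Myl1 level was 9582 CPM and its median Myl4 level 6791. The 5th percentile of Mylpf in the Ckm set, 2931 CPM, lay close to the upper quartile of the Myog set.

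**Figure D3:**
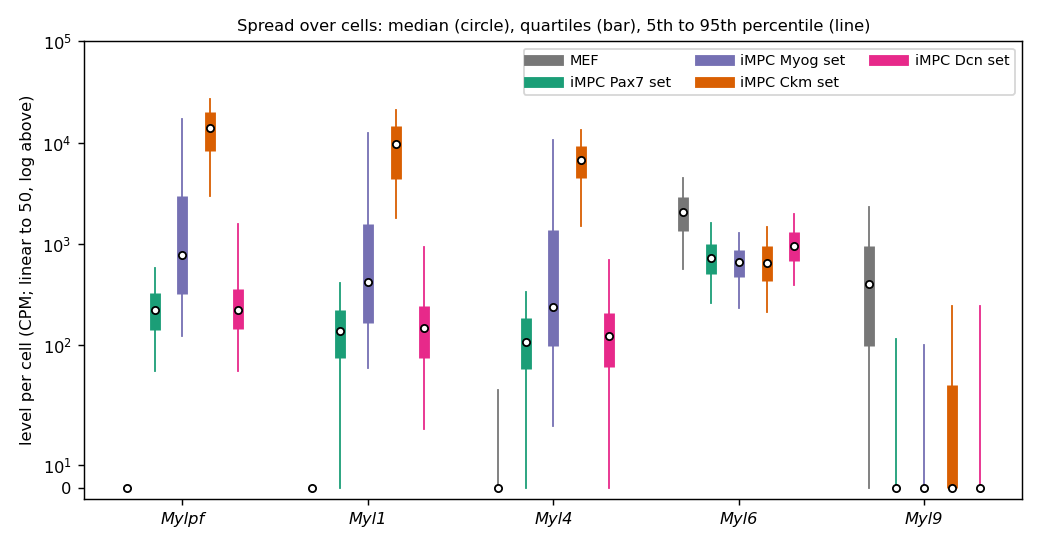
Per-cell CPM of 5 light chain genes in MEF cells and the 4 iMPC cell sets (axis linear up to 50 CPM and logarithmic above). Circles are medians over cells, bars the quartiles and lines the 5th to 95th percentiles. Mylpf in the Myog set spans 124 CPM at the 5th percentile to 17183 at the 95th, against 2931 to 26982 in the Ckm set.

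Within the Myog set, 449 cells with 1 Ckm UMI had 6645 CPM of Mylpf, 4584 of Myl1 and 3848 of Myl4. The 1275 cells with none had 3209, 2229 and 1941. When all iMPC cells with at least 5 Myog UMIs were ordered by UMIs of Myh3, the embryonic heavy chain, Mylpf was at 388 CPM in the 347 cells with no Myh3 UMI. It was at 982 CPM with 1 to 4 Myh3 UMIs, 3341 with 5 to 19, 10679 with 20 to 99 and 16188 with 100 or more. Median depth differed along this order, from 20029 to 52327 UMIs. For the cells with no Myh3 UMI, the level that free RNA would give at their median depth was estimated at 173 CPM of Mylpf.

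The Pax7 and Dcn sets need the level of free RNA beside them. Barcodes of 200 to 600 UMIs in the iMPC library, below the minimum for cells, held 8062 CPM of Mylpf, 6773 of Myl1 and 4782 of Myl4. If each Pax7-set cell carried the median of 430 UMIs of such RNA, 2.30% of its total, free RNA alone would give 185 CPM of Mylpf, 155 of Myl1 and 110 of Myl4. The summed levels were 258, 173 and 134 CPM, and the medians over cells were 222, 136 and 106. The median cell was thus below the estimate for Myl1 and Myl4 and 1.20 times the estimate for Mylpf. With barcodes of 1 to 100 UMIs as the profile, the estimates were 115, 66.1 and 63.5 CPM. Subtracting the first estimate left 74.3 CPM of Mylpf, 18.2 of Myl1 and 25.1 of Myl4 in the Pax7 set. Whether these small barcodes hold only free RNA was not tested.

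After each cell was thinned to 5000 UMIs, 68.1% of Pax7-set cells and 70.3% of Dcn-set cells held a Mylpf UMI, at like median depths of 18729.5 and 18064 UMIs. The Pax7-set share was thus no higher than that of the Dcn set, with which it shared 110 cells. Whether the Pax7-set share came from expression or from free RNA was not tested, and it is not read as expression. The Myog set stood at 89.6% and the Ckm set at 99.9%, against 1.28% of MEF cells. Unthinned, the Pax7-set share was 97.8%. The same thinning gave Myl9 in 71.5% of MEF cells, 15.7% of the Ckm set, 10.5% of the Dcn set, 7.48% of the Pax7 set and 6.90% of the Myog set.

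In the Dcn set the muscle light chains sat in few cells. The top 5% of its cells held 83.2% of the Mylpf UMIs, 85.5% of the Myl1 UMIs and 80.3% of the Myl4 UMIs. The median cell had 222 CPM of Mylpf, 147 of Myl1 and 123 of Myl4, beside free RNA estimates of 192, 161 and 114. The 18 cells that were also in the Ckm set had 8565 CPM of Mylpf. Without the cells of more than 1 set, 407 cells remained, with 523 CPM of Mylpf, 456 of Myl1 and 319 of Myl4. With the Scrublet doublets removed from the full set, these levels were 518, 387 and 225 CPM. So the summed Dcn-set levels of these 3 genes were more than 1.5 times higher with those cells than without them. Myl9 went the other way, from 67.9 CPM in the full set to 82.9 without the cells of more than 1 set.

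**Figure D4:**
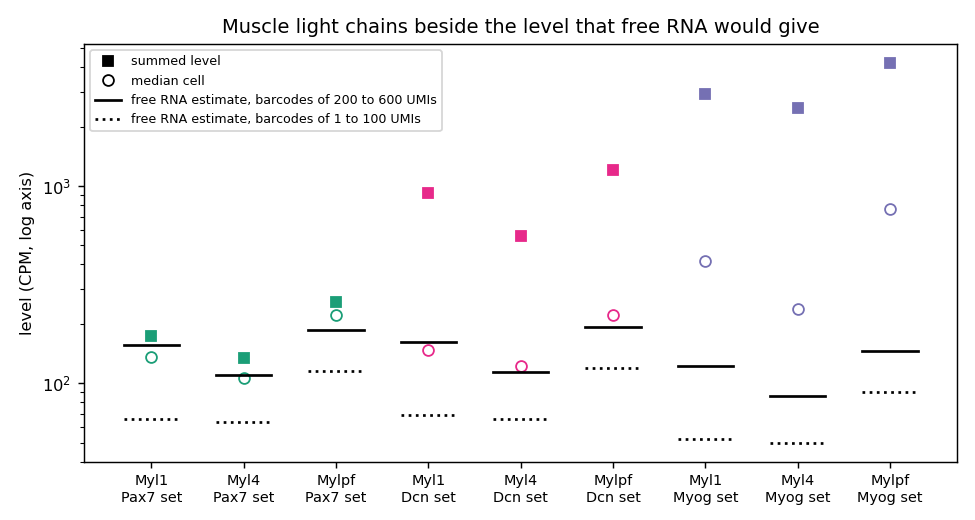
Summed CPM and median over cells of Mylpf, Myl1 and Myl4 in the Pax7, Dcn and Myog sets (log axis). Lines give the level that free RNA would give, estimated from barcodes of 200 to 600 UMIs (solid) or 1 to 100 UMIs (dotted). The Myl1 medians of the Pax7 and Dcn sets, 136 and 147 CPM, lie below the solid lines, and that of the Myog set, 415, lies above.

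Within the Ckm set, the essential chains differed in how they went with Ckm. The cells were placed in bins of 5 to 9 Ckm UMIs (379 cells), 10 to 19 (325), 20 to 49 (265), 50 to 99 (62) and 100 or more (6). Mylpf was at 12207, 14109, 17051, 20545 and 25889 CPM along these bins, higher in each bin than in the one before. Myl1 had the same order, at 8736, 9420.4, 11832, 14052 and 17994 CPM. Myl4 was flatter, at 6917, 7283, 7576, 7765 and 6263 CPM. Thus, across these bins of Ckm UMIs, the fast regulatory and essential chains were higher with more Ckm. The embryonic chain was not lower there except in the 6 cells of the last bin. The order did not hold throughout when cells were ordered by Ckm CPM, as given next.

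The count of Myl4 per Myl1 UMI was 0.792 (0.785 to 0.798), 0.773, 0.640, 0.553 (0.545 to 0.560) and 0.348 (0.331 to 0.366) along the bins. Between the first bin and that of 50 to 99 UMIs it differed 1.43-fold. It differed 1.55-fold after each cell was thinned to 8000 UMIs, with cells kept in the bins of their unthinned Ckm UMIs. Median depth was 35269 UMIs in the first bin and 56446 in the fourth. Since the bins were not drawn anew, this thinning cannot show the part of depth in the placing of cells. The 2.27-fold difference to the last bin rests on 6 cells. When the set was cut instead into 5 groups of like size by Ckm CPM, the ratio was 0.790, 0.789, 0.737, 0.709 and 0.543. From the first to the second of these groups all levels were lower. Mylpf went from 13463 to 13304 CPM, Myl1 from 9630 to 8929 and Myl4 from 7607 to 7049. Median depth there was 55681 and 39337 UMIs, and its part in these levels was not tested. Mylpf per Myl1 was 1.40, 1.498, 1.44, 1.46 and 1.44 in the 5 bins.

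**Figure D5:**
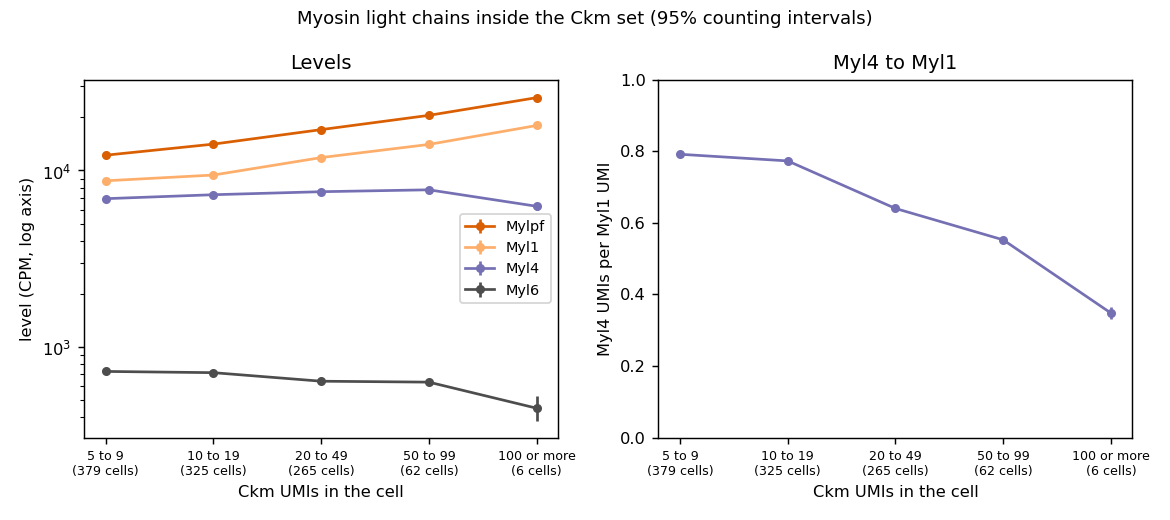
CPM of 4 light chain genes (left, log axis) and Myl4 UMIs per Myl1 UMI (right) across bins of Ckm UMIs within the Ckm set, with 95% counting intervals. Mylpf and Myl1 are higher in each bin than in the one before, and Myl4 per Myl1 runs from 0.792 in the first bin to 0.348 in the 6 cells of the last.

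Among the other members, Myl6b was at 111, 127, 142, 157 and 189 CPM along the bins, and Myl6 at 724, 712, 637, 629 and 448 CPM. Of the heavy chains, Myh3 ran from 1984 CPM in the first bin to 2271 in the fourth, and Myh8, the perinatal heavy chain, from 1052 to 2509. Myh4, an adult fast heavy chain, was at 67.7 CPM in the first bin and 450.5 in the fourth, and Myh7, the slow heavy chain, at 131 and 81.0.

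In the Myog set, Myl4 per Myl1 was higher in cells with more Myog UMIs. It was 0.658 (0.634 to 0.682) in the 259 cells with 5 to 9 Myog UMIs, 0.710 with 10 to 19, 0.856 with 20 to 49 and 0.979 (0.965 to 0.993) in the 430 cells with 50 or more, at median depths from 20306 to 27260.5 UMIs. In cells with at least 5 Myog UMIs ordered by Myh3 it was 0.678 with no Myh3 UMI, 0.599 with 1 to 4, 0.672 with 5 to 19, 0.813 with 20 to 99 and 0.766 with 100 or more. The set values were 0.775 in Pax7, 0.856 in Myog, 0.705 in Ckm and 0.603 in Dcn cells, beside 0.706 in the barcodes of 200 to 600 UMIs. Mylpf per Myl1 was 1.49, 1.44, 1.45 and 1.32 in these sets, and 1.19 in those barcodes.

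The sum of essential chains (Myl1, Myl3, Myl4, Myl6, Myl6b) was set against that of regulatory chains (Myl2, Myl9, Mylpf), since a head binds each kind once. The ratio was 3.27 in MEF cells, 3.96 in the Pax7 set, 1.998 in the Dcn set, 1.45 in the Myog set and 1.23 in the Ckm set. The Dcn-set ratio was 2.92 without doublets and 3.17 without cells of more than 1 set, and the Pax7-set ratio was 8.51 less free RNA. With the other regulatory genes Myl7, Myl10, Myl12a and Myl12b added, the ratios in the same order were 1.52, 1.5, 1.52, 1.27 and 1.17. Most of the added UMIs came from Myl12a, a non-muscle regulatory chain, at 755 CPM in MEF cells, 455 in the Pax7 set and 756 in the Ckm set. Its near copy Myl12b was at 38.8 CPM or less, and reads may be split between the 2 genes. Myl7, the atrial chain, was at 0.119 CPM or less in every set.

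The genes whose levels went most closely with each member over the 9349 iMPC cells were taken by Pearson's r of log counts per 10000. The cells share library and depth, and the values are descriptions. Myl1 went with Acta1 (0.929), the skeletal alpha-actin gene, then with Mylpf (0.926) and Myl4 (0.916). Mylpf went with Tnnc2 (0.926), the fast troponin C gene. Myl6b went with Mylpf (0.743), Tnnt3 (0.740) and Tnnc2 (0.733). Myl9 went with the smooth muscle genes Tagln (0.605), Actg2 (0.595) and Lmod1 (0.480). Myl6 had lower values, with Actb (0.453), S100a6 (0.443) and Tpm4 (0.437).

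Within the 1037 cells of the Ckm set, Myl1 went with Tnnc2 (0.838), Mylpf (0.837) and Casq1 (0.809), the calsequestrin gene of fast fibres. Myl4 went with Mylpf (0.735), Acta1 (0.713) and Myoz2 (0.712). Myl6 went with Acta2 (0.662), and its r with Myl1 was -0.544. Over the 6043 MEF cells, a group added after the values were seen, Myl9 went with Acta2 (0.827) and Tagln (0.799), and Myl6 with Tpm2 (0.736) and Acta2 (0.731).

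Of 39 other genes of the light chain pathway, 28 were at 10 CPM or more in the Pax7 or Ckm set, and 14 were 2-fold higher and 8 2-fold lower in the Ckm set. Of all genes 12.2% were higher and 30.2% lower, so the share of pathway genes that were lower was close to the background. The median log2 ratio of the 28 genes was 0.93, beside -0.46 over all genes, both before any scaling by gene ratios. With scaling by the median of gene ratios, 18 were higher and 5 lower, and the share of all genes under that scaling is not given. Of the kinases, 2 of 7 were higher and 3 lower. Mylk4, a muscle myosin light chain kinase, was at 4.13 CPM in the Pax7 set, 73.9 in the Myog set and 180.3 in the Ckm set, with no UMI in MEF cells. Mylk, the smooth muscle and non-muscle kinase, was at 5.32 CPM in the Pax7 set and 11.6 in the Ckm set, and Mylk2, the skeletal kinase, at 6.23 in the Ckm set. Those lower were Rock1 (104 against 45.7 CPM), Cdc42bpa (39.3 against 11.7) and Cdc42bpb (16.9 against 7.58), kinases that act on non-muscle myosin. With scaling by the median of gene ratios, only Cdc42bpa of these 3 stayed past 2-fold.

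Of the 7 genes of the light chain phosphatase and its inhibitors, 2 were higher and 3 lower. Ppp1r14c, an inhibitor, was at 63.8 CPM in the Pax7 set and 187 in the Ckm set, and Ppp1r14a, another, at 78.4 and 24.3. Of the 8 heavy chains at 10 CPM or more, 6 were higher and 2 lower. The embryonic Myh3 was at 30.6 CPM in the Pax7 set and 2200 in the Ckm set, and the non-muscle Myh9 at 165 and 50.4. Of 6 further genes at that level, Myl12a and Myl12b were inside the 2-fold limit. The other 4 were higher, among them Mybph, which encodes a myosin-binding protein (8.11 against 365 CPM), and Unc45b, which encodes a myosin chaperone (1.18 against 58.8).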

How the data were processed

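The members and gene lists were chosen with earlier results of these data known. Per the labels' protocols, cells were prepared with the 10x Genomics 3′ kit. The values the authors deposited are whole UMI counts for each gene in each barcode, not normalised. The submitters' processing notes name Cell Ranger 4.0, Seurat 3.2.3 and GRCm38.p6. The MEF matrix holds 6113 barcodes with 503 UMIs or more each, whereas the iMPC matrix was not filtered for cells (6794880 barcodes, 2707590 with any UMI). Totals were 282903287 and 118541302 UMIs. The 26100 shared genes were used, which left out 0.209% of MEF UMIs.

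UMIs were summed over the cells of a set and divided by their total (CPM). Intervals were exact Poisson for CPM, exact conditional for ratios and exact binomial (Clopper-Pearson) for shares, at 95%. They cover counting error only. With 1 library per group no test was possible. A gene counted as higher or lower at a 2-fold ratio, among genes at 10 CPM or more in either set, with a floor of 3 counts for a gene with no UMI. Free RNA was estimated from iMPC barcodes of 200 to 600 UMIs. Shares of cells were taken after thinning to 5000 UMIs, which left out 284 MEF cells. Doublets were kept. As an alternative, Scrublet removed 337 iMPC cells. It marked 1 MEF cell, so the 218 highest MEF scores were removed. The alternatives also changed the filters, the scaling and the fold, and the ratio script was tested on simulated data. Genes were named by rule: the 8 members, the pathway lists and, for members at 50 CPM or more, the 3 genes of highest correlation, among genes with a UMI in at least 5% of cells. Pathway genes given with values and all splits of the sets were chosen after values were seen. Software was Python 3.11.15, numpy 2.4.6, scipy 1.17.1, pandas 2.3.3 and scanpy 1.11.5.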

Additional observations from a re-analysis of the deposited data

Results flagged for a closer look

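Members were also found in iMPC barcodes below the UMI minimum for cells. Whether these barcodes held free RNA only was not tested. The 2636580 barcodes of 1 to 100 UMIs held 5003 CPM of Mylpf, 2880.1 of Myl1, 2767 of Myl4 and 50.1 of Myl6b. The 48846 barcodes of 200 to 600 UMIs held 8062 CPM of Mylpf, 6773 of Myl1, 4782 of Myl4 and 77.8 of Myl6b. Each of these levels was above that of MEF cells. Myl2 was at 0.571 CPM in the smaller barcodes and 0.941 in the larger ones.

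Some members were instead higher in the smaller barcodes. Myl6 was at 1233 CPM there and 754 in the larger ones, and Myl9 at 147 and 36.1. The 147 CPM of Myl9 was above its level in the 4 iMPC cell sets. Myl3 was at 15.2 CPM in the barcodes of 1 to 100 UMIs and at 1.04 in those of 200 to 600, and no cell set reached more than 1.75 CPM. Its 133 UMIs in the smaller barcodes lay in 130 barcodes with at most 2 in any. The cause was not tested.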

How the results depend on the processing

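Of the single-gene values under other settings, 1089 stayed within their counting interval, 453 moved beyond it and 6 changed direction, and of the summary values 330 stayed within it or, for counts, within 1.5 times, and 32 moved. The log2 ratio of Myl6 between the Ckm and Myog sets was 0.024 with at most 10% mitochondrial UMIs, 0.050 as a mean of cells and 0.32 with scaling by the median of gene ratios. That scaling, which moved the median gene by -0.37 in the Ckm set, also gave 0.25 for Myl6 between the Ckm and Pax7 sets. The ratio of Myl2 between the Dcn set and MEF cells was -0.60 as a mean of cells, and that of Myl9 between the Myog and Pax7 sets 0.025 with Pax7 at 2 or more.

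The share of Mylpf, Myl1 and Myl4 in the Ckm set was 97.5% without doublets, 97.3% at 10% mitochondrial UMIs, 97.2% as a mean of cells, 97.4% without cells of more than 1 set, 97.8% with Ckm at 20 or more, and 95.2% with 4 light chains added, which gave an essential to regulatory ratio of 1.17. Subtracting free RNA left 2 members at 50 CPM or more in the Pax7 set, against 4. The Myl4 to Myl1 difference between Ckm bins was 1.55-fold when thinned and 2.27-fold to the last bin, an alternative chosen after seeing the data. Pax7-set shares with a UMI were 97.8% for Mylpf and 21.0% for Myl9 unthinned, and 35.6% and 2.06% at 2 or more UMIs.

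The counts that follow are given without the share of all genes under the same setting. They are therefore not read as results about the members or pathway genes. At a fold of 4, 0 members were higher in the Ckm than in the Myog set (5 at 2-fold), and 1 was lower in the Dcn set and 1 in the Pax7 set than in MEF cells (2 each). The Dcn count was also 1 without mitochondrial and ribosomal protein genes and without cells of more than 1 set. In the main setting, 28 pathway genes were at 10 CPM or more for the Dcn set against MEF cells and 21 for the Pax7 set against MEF cells. There were 27 for the Myog against the Pax7 set, 27 for the Ckm against the Myog set and 28 for the Ckm against the Pax7 set. Of the pathway genes, 6 were higher in the Dcn set than in MEF cells without doublets, 6 without cells of more than 1 set and 7 as a mean of cells, against 11. Without mitochondrial and ribosomal protein genes 7 were higher in the Pax7 set than in MEF cells, against 4. With scaling by gene ratios 1 was lower in the Myog than in the Pax7 set, 1 in the Ckm than in the Myog set and 5 in the Ckm than in the Pax7 set, against 2, 3 and 8. At a fold of 4 these counts were 0, 0 and 0, 4 were higher from the Myog to the Ckm set (12 at 2-fold), and 1 was lower in the Dcn set and 1 in the Pax7 set than in MEF cells (2 and 5).

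Depth limits Myl2 and Myl3, with 100 and 85 UMIs in their highest set. No paired analysis was possible because each group is 1 library.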
